A study of Mus musculus with 10 samples.

Results

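The proteasome is the large protease that degrades most ubiquitin-tagged proteins, and its genes carry the symbols Psma, Psmb, Psmc, Psmd and Psme followed by a number. On the arrays of this study of mouse heart, 44 of the 18193 genes that could be named had such a symbol. Each was read by 1 probe set, the one with the highest mean over the 10 arrays among those annotated with a single symbol. Of the 44, 8 encode the alpha ring of the 20S core, 7 its constitutive beta ring and 4 inducible or tissue-specific beta subunits. The 19S cap was covered by 6 ATPases, 11 non-ATPase subunits and 3 assembly chaperones, and the activators by Psme1, Psme3 and Psme4. The remaining 2 symbols, Psmc3ip and Psme3ip1, fit the naming rule but belong to proteins that are not proteasome subunits. Psme2, the partner of Psme1 in the interferon-inducible activator, had only a probe set annotated with 2 symbols and was left out.

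Hearts came from male SV129 mice 32 weeks of age that were either wild type (WT) or PKCz -/- littermates (KO). They had received angiotensin II (AngII), the pressor peptide whose long infusion makes the heart hypertrophic, or the solvent PBS. The AngII dose was 432 µg per kg and day over 14 days from minipumps under the skin. There were 2 WT PBS arrays (title numbers 3 and 5), 3 WT AngII arrays (2, 3 and 4), 3 KO PBS arrays (2, 3 and 4) and 2 KO AngII arrays (3 and 4). The source label calls the PBS mice untreated, and the labels do not state how the PKCz allele was made or whether each array holds 1 heart, so a p-value reflects only how these arrays scatter, which may be technical.

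In the 20S core, outer alpha rings gate the entry of substrates and inner beta rings hold the active sites, of which Psmb6, Psmb7 and Psmb5 encode the caspase-like, trypsin-like and chymotrypsin-like ones. Interferon replaces these with Psmb9, Psmb10 and Psmb8, which makes the immunoproteasome that prepares peptides for MHC class I. The 19S cap recognises ubiquitin, removes it and unfolds the substrate. In cardiac muscle the proteasome turns over sarcomere proteins and damaged proteins, and its subunit genes can be raised together by the transcription factors Nfe2l1 and Nfe2l2.

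Values are log2 expression values on the scale of the robust multi-array average (RMA), so a difference of 1 is a doubling. Differences are taken only within a gene, and levels of different probe sets serve only to rank them as bright or dim. Differences were fitted with limma over all 10 arrays and all 45037 non-control probe sets, and a gene was called where the Benjamini-Hochberg adjusted p was under 0.05. The targeted gene Prkcz was lower in KO than in WT hearts by a log2 difference of -0.53 (exact two-sided permutation within treatment, p = 0.01, the smallest that 100 arrangements can give), yet its limma adjusted p was 0.126. Cardiomyocyte markers were bright on every array, Myh6 at 14.32 to 14.48 and Tnnt2 at 14.25 to 14.36. Array WT AngII 2 stood apart, with the mean of 8 fibroblast markers 2.02 above their average over arrays, against at most 0.49 on any other array, and the mean of 10 macrophage markers 1.04 above. Bacterial spike-in transcripts, added as labelling controls, split the arrays: 3 of them read 6.90 to 7.08 (KO AngII 3, KO AngII 4 and KO PBS 4) and 7 read 12.86 to 13.33. The same 3 arrays had the smallest excess of the 3' over the 5' control probe set of beta-actin, 0.74 to 0.83. On the others it ran from 0.92 (WT AngII 2) to 1.70 (WT PBS 5), and its part in the values was not tested. Both KO AngII arrays and no WT array are among those of low signal, so under AngII genotype and spike-in level cannot be told apart. Values given below with a spike-in term rest on KO PBS 4 against the other KO PBS arrays alone. In whole-heart RNA, fewer cells of a type and less RNA per cell cannot be told apart either.

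None of the 44 proteasome genes was called in any of the 7 comparisons, beside 0% of all probe sets called for AngII in WT, 0% for AngII in KO, 0% for the difference between these effects, 0.0133% for genotype in PBS mice and 0.0111% for genotype in AngII mice. With limma's averages over the other factor, 0% of probe sets were called for AngII and 0.0444% for genotype. At an unadjusted p under 0.05, 1 gene was lower with AngII in WT (Psmb3), beside 3.77% of all genes lower and 1.65% higher, and 0 in KO, beside 2.94% and 1.42%. KO against WT gave 0 under PBS, beside 3.44% lower and 2.31% higher, and under AngII 1 lower (Psma8) and 1 higher (Psmb3), beside 4.25% and 2.39%. The average over genotype gave 4 lower with AngII (Psmb2, Psmb3, Psmc5 and Psmd2) of 44, beside 7.45% of all genes lower and 3.02% higher, and the average over treatment gave 0, beside 7.91% lower and 4.91% higher. The smallest adjusted p of a member was 0.411, for Psmb2 between genotypes averaged over treatment.

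The proteasome genes varied little between arrays of a group. Their median within-group SD was 0.132, against 0.170 for all 18193 genes and 0.184 for the 12123 genes at or above the median level of the probe sets. Of the 44 members 43 were at or above that level, many far above it, and no set matched more closely in level was compared. Psmb6 (0.0473) and Psme1 (0.0526) were the steadiest members, and Psmb9 (0.315), Psmd10 (0.301) and Psmb2 (0.278) the most variable. Single arrays tended to carry the extremes: WT PBS 3 was the highest array for 12 of the 44 genes, WT AngII 2 for 10, WT PBS 5 for 9 and KO PBS 3 for 8, while WT AngII 4 was the lowest for 12 and WT AngII 3 for 7. Averaged over the 44 genes, each centred on its own mean, the arrays lay between -0.09 (KO AngII 3 and WT AngII 4) and 0.10 (WT PBS 3 and KO PBS 3).

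**Figure D1:**
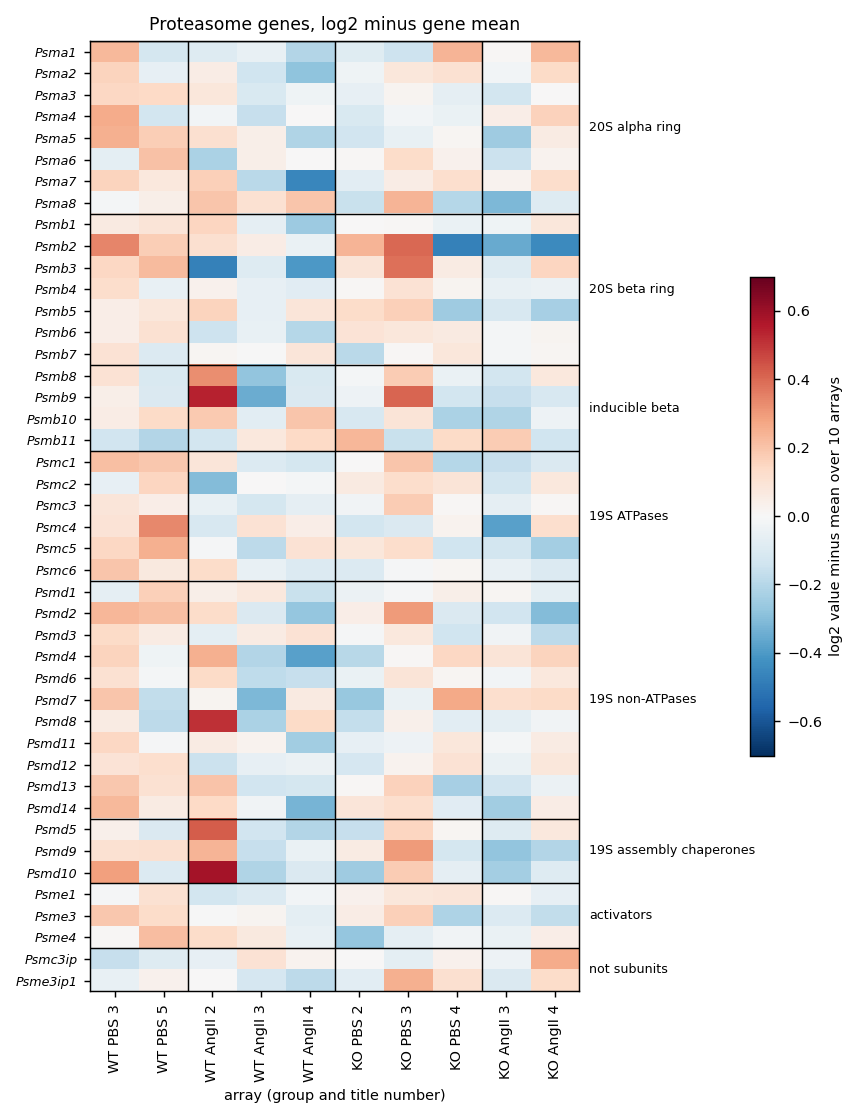
Log2 value of each of the 44 proteasome genes (rows, grouped by part of the complex) on each of the 10 arrays (columns, with lines between the 4 groups), as the difference from the gene's mean over the arrays; red is higher, blue lower. Most cells are pale, and the deepest red ones are Psmd10, Psmb9 and Psmd8 on WT AngII 2, while Psmb2 is blue on the 3 arrays of low spike-in signal.

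Most proteasome genes had a lower mean with AngII in WT hearts, and none passed the test. The fitted difference was below 0 for 36 of the 44 genes (38 with array medians made equal, 30 with quantile normalisation repeated), with a median of -0.13. In the main fit 51.0% of all genes were below 0, with a median of -0.00. Among genes at or above the median level it was 58.6%, with a median of -0.04. Many members were far above that level, such as Psma3 at percentile 97.7 of all genes and Psmb6 at 95.7. No set matched more closely in level was compared, so whether the lean is particular to proteasome genes was not tested. In 12 of the 44 genes (27.3%) every AngII array lay below both PBS arrays, beside 12.7% of all genes, and in 3 genes (6.82%) every AngII array lay above, beside 7.87%. The 12 were Psma3, Psma5, Psmb2, Psmb3, Psmb6, Psmc1, Psmc3, Psmc5, Psmd2, Psmd12, Psme1 and Psme3, and the 3 were Psma8, Psmb11 and Psmc3ip. Without array WT AngII 2, 39 genes were below 0 and the median was -0.18, while that of the genes at or above the median level was -0.10. Without WT AngII 4 the median was -0.09, and with quantile normalisation repeated it was -0.06 beside 0.00 for the genes at or above the median level. In the same comparison 8 of 8 cardiomyocyte markers were below 0, with a median of -0.07. All 8 fibroblast markers were above, with a median of 1.19, and their mean ran from -0.69 to -0.25 in WT PBS and from -0.25 to 2.02 in WT AngII. Of the macrophage markers 8 of 10 were above, with a mean of -0.11 to 0.12 in WT PBS and -0.12 to 1.04 in WT AngII. Both upper ends were WT AngII 2. The other WT AngII arrays read -0.25 and -0.08 for the fibroblast mean and -0.12 and 0.08 for the macrophage mean. The part of these cells in the lean of the proteasome genes was not tested.

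In KO hearts AngII gave 30 of 44 fitted differences below 0 (38 with array medians made equal, 23 with quantile normalisation repeated) and a median of -0.07, beside 52.1% and -0.01 for all genes and 60.1% and -0.05 for genes at or above the median level. Without KO AngII 3 the median was -0.00 and 22 genes were below 0, and without KO PBS 3 it was -0.02. Both AngII arrays lay below all 3 PBS arrays for 5 genes (11.4%, beside 13.5% of all genes), Psmb4, Psmb6, Psmd2, Psmd9 and Psme1, and above for 1 (2.27%, beside 12.5%), Psma4. Since KO PBS 4 is the only KO PBS array of low spike-in signal, a term for that signal rests on it, and 17 of the 44 differences changed sign with the term. Marker lists moved with AngII in KO too: the fibroblast mean ran from -0.61 to -0.41 with PBS and from 0.20 to 0.49 with AngII, and the macrophage mean from -0.41 to -0.23 and from -0.10 to 0.04. The part of these cells in the proteasome values was not tested. The difference between the AngII effects (KO minus WT) was above 0 for 30 genes, with a median of 0.04, but for 22 with quantile normalisation repeated. No member had an unadjusted p under 0.05 there, beside 0.945% of all genes higher and 0.467% lower.

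**Figure D2:**
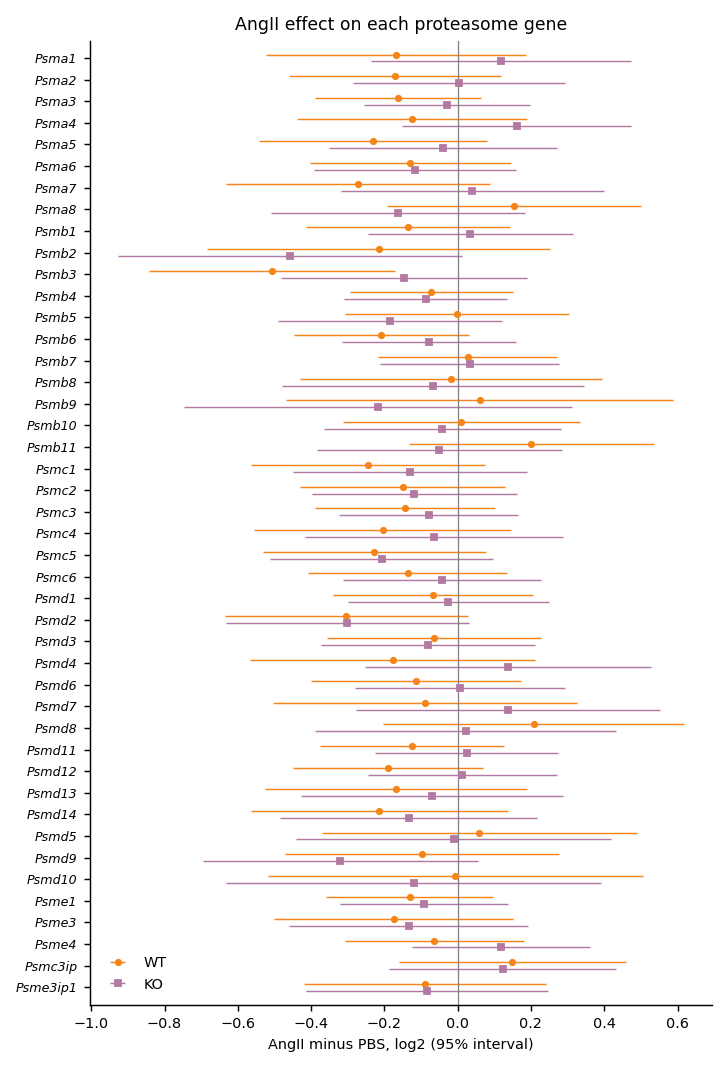
AngII minus PBS, as a log2 difference with its 95% interval from limma, for each of the 44 proteasome genes in WT (circles) and KO (squares) hearts. Most WT points lie left of 0, and only the WT interval of Psmb3 (-0.84 to -0.17) leaves 0 out.

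Between genotypes under PBS, 33 of 44 genes were below 0 in KO, but 40 with array medians made equal and only 17 with quantile normalisation repeated, so the side depends on the scaling. The median was -0.05, equal to the -0.05 of genes at or above the median level, of which 60.7% were below 0. It was -0.12 without WT PBS 5, -0.02 without KO PBS 2 and 0.03 with quantile normalisation repeated. The KO arrays all lay below the WT arrays for 7 genes (15.9%, beside 12.1% of all genes), Psma3, Psma5, Psmb1, Psmc4, Psmc5, Psmc6 and Psme4, and above for Psmc3ip alone (2.27%, beside 12.6%). Of the macrophage markers 10 of 10 were below 0 in KO under PBS (median -0.32) and 10 of 10 under AngII (median -0.40), and of the smooth muscle and pericyte markers 7 of 7 (median -0.32) and 6 of 7 (median -0.26). The mean of the macrophage markers ran from -0.41 to -0.23 in KO PBS and from -0.11 to 0.12 in WT PBS. Under AngII it was -0.10 and 0.04 in KO, against 1.04 on WT AngII 2 and -0.12 and 0.08 on the other WT arrays. The smooth muscle and pericyte mean was 0.02 and -0.13 in KO AngII, against 0.82 on WT AngII 2 and -0.01 and -0.07. Apart from WT AngII 2, the genotypes thus overlapped under AngII in both means. The part of these cells in the genotype values was not tested. Under AngII, 27 of 44 were below 0 (29 and 19 with the 2 other scalings, 17 with a spike-in term) with a median of -0.02, and it was 0.02 without WT AngII 2 and 0.03 without KO AngII 3. Under AngII the KO arrays lay below all WT arrays for Psma8, Psmb2, Psmb5, Psmd9 and Psme3 (11.4%, beside 14.5%) and above for Psma1, Psma4, Psmb3, Psmb6 and Psmd7 (11.4%, beside 13.5%). When limma gave each array a weight from its own spread, 5 of the 44 genes were called in this comparison, 4 higher in KO (Psma2, Psma7, Psmb3 and Psmd4, adjusted p 0.0192 to 0.0474) and Psma8 lower (adjusted p 0.0390). That is 11.4% of the members, beside 6.46% of all probe sets called by the same weighted fit (2.95% higher and 3.51% lower). Without weights 0.0111% of probe sets were called. Both KO AngII arrays and no WT array are of low spike-in signal, so in these calls genotype and spike-in level cannot be told apart.

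**Figure D3:**
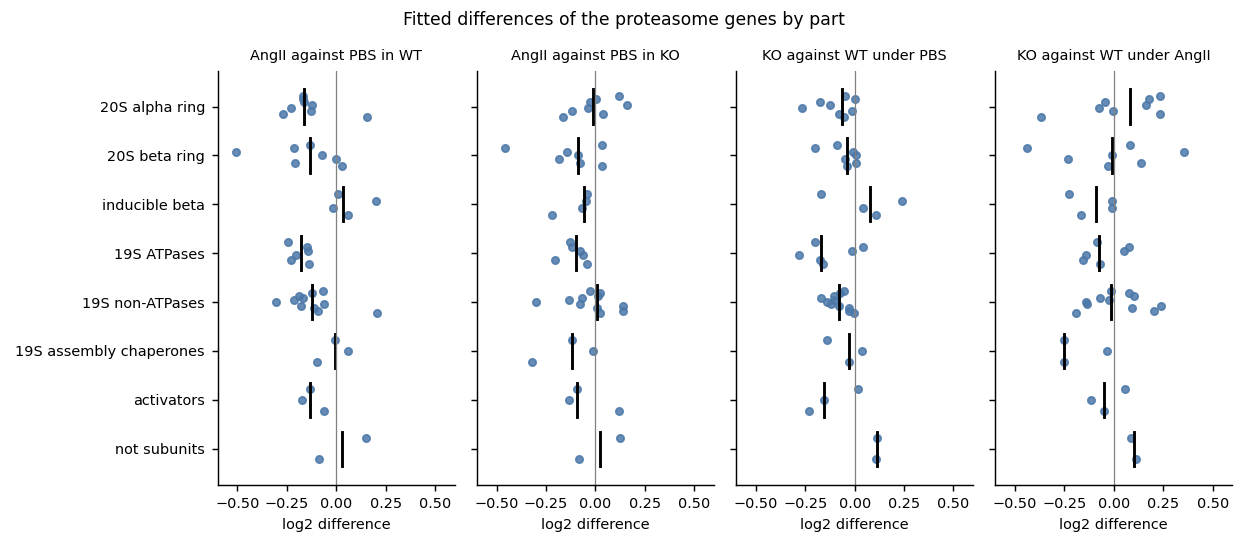
Fitted log2 differences of the 44 proteasome genes (points) by part of the complex in 4 comparisons, with the median of each part as a black bar. For AngII in WT all 6 ATPases lie below 0, and for AngII in KO the non-ATPases scatter on both sides; no point was called.

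None of the constitutive catalytic subunit genes passed the test with AngII or between genotypes. Psmb6, the caspase-like site, read 10.93 and 10.98 on the WT PBS arrays, 10.73, 10.82 and 10.68 with AngII, 10.98, 10.96 and 10.94 in KO PBS and 10.86 and 10.90 in KO AngII. In both genotypes all AngII arrays were thus below all PBS arrays, and the WT AngII arrays were the lowest of all. The fitted AngII difference was -0.21 in WT (95% interval -0.45 to 0.03) and -0.08 in KO (-0.32 to 0.16), and the WT value was -0.14 with quantile normalisation repeated. Psmb7, the trypsin-like site, read 11.92 and 11.73 in WT PBS, 11.84, 11.82 and 11.90 in WT AngII, 11.63, 11.83 and 11.90 in KO PBS and 11.81 and 11.84 in KO AngII. Its groups overlapped throughout, and the AngII difference was 0.03 in WT (-0.22 to 0.27) and 0.03 in KO (-0.21 to 0.28).

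Psmb5, the chymotrypsin-like site and the main target of proteasome inhibitors, read 11.33 and 11.36 in WT PBS and 11.44, 11.23 and 11.37 in WT AngII. In KO it read 11.41, 11.45 and 11.03 with PBS and 11.17 and 11.05 with AngII. The low values were the 3 arrays of low spike-in signal, KO PBS 4 among them. The AngII difference of Psmb5 was -0.00 in WT (-0.31 to 0.30) and -0.19 in KO (-0.49 to 0.12). KO against WT under AngII gave -0.23 (-0.54 to 0.07) without and 0.17 with a term for spike-in level.

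Promoter sequences were taken from the RefSeq windows of build GRCm38.p6, 250 bases before to 50 after each start site, in which 37 of the 44 genes had a match and 40 windows. The search covered TGACNNNGC, the core of the antioxidant response element bound by Nfe2l1 and Nfe2l2, and the interferon response element core, GAAA and GAAA with any 2 bases between them, on both strands, where N is any base. TGACNNNGC shares its first letters with the cAMP response element. It occurred in 6 of the 40 member windows (15.0%), beside 12.4% of all 32851 windows, in Psmb5, Psmb6, Psmc6, Psmd9, Psmd12 and Psme4. The interferon core occurred in 4 member windows (10%), beside 3.44%, in Psmb3, Psmd4, Psmd9 and Psme1. The windows of both constitutive catalytic genes that hold TGACNNNGC are shown with the match in capitals; they lie at chr14:54617946-54618245 on the minus strand (Psmb5) and chr11:70525107-70525406 on the plus strand (Psmb6).
Psmb5: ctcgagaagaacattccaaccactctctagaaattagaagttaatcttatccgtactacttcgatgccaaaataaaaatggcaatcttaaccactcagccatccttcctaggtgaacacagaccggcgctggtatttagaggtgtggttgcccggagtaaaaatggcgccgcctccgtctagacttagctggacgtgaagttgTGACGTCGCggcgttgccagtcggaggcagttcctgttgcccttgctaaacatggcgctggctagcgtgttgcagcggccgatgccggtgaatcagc
Psmb6: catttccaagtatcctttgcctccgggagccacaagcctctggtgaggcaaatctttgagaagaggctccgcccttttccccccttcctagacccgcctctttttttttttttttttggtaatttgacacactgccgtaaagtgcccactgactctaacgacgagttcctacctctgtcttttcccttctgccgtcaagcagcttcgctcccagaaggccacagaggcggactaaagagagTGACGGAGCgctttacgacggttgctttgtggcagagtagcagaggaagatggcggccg
In Psmb5 the match starts 47 bases before the start site and in Psmb6 9 bases before. The match is a description of the letters in the window and was not set against binding data.

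Of the inducible counterparts, Psmb9 and Psmb8 scattered by array more than by group. Psmb9, which replaces Psmb6, read 7.25 and 7.10 in WT PBS, 7.75, 6.86 and 7.10 in WT AngII, 7.17, 7.61 and 7.08 in KO PBS and 7.04 and 7.10 in KO AngII. Its highest and its lowest array were both WT AngII, so that group spanned the range of all 10. The AngII difference of Psmb9 was 0.06 in WT (-0.47 to 0.59), but -0.19 without WT AngII 2, and -0.22 in KO (-0.75 to 0.31). Psmb8, which replaces Psmb5, read 8.06 and 7.85 in WT PBS, 8.28, 7.68 and 7.85 in WT AngII, 7.94, 8.14 and 7.91 in KO PBS and 7.83 and 8.03 in KO AngII. WT AngII 2 was again the highest and WT AngII 3 the lowest array, and the AngII difference was -0.02 in WT (-0.43 to 0.39) and -0.07 in KO (-0.48 to 0.35).

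Psmb10, which replaces Psmb7, read 9.91 and 9.99 in WT PBS, 10.05, 9.79 and 10.05 in WT AngII, 9.75, 9.95 and 9.64 in KO PBS and 9.65 and 9.82 in KO AngII. Its AngII difference was 0.01 in WT (-0.31 to 0.33) and -0.04 in KO (-0.37 to 0.28). Between genotypes it was -0.17 under PBS (-0.50 to 0.15), -0.22 under AngII (-0.55 to 0.10) and -0.20 averaged over treatment (-0.43 to 0.03), which changed to -0.06 with a spike-in term. Psmb11, the beta subunit known from the thymus, read 5.34 to 5.78, below the median probe set of every array (6.13 to 6.24), and whether it lay above background was not tested. Its AngII difference was 0.20 in WT (-0.13 to 0.54), where the groups did not overlap, and -0.05 in KO (-0.38 to 0.28).

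**Figure D4:**
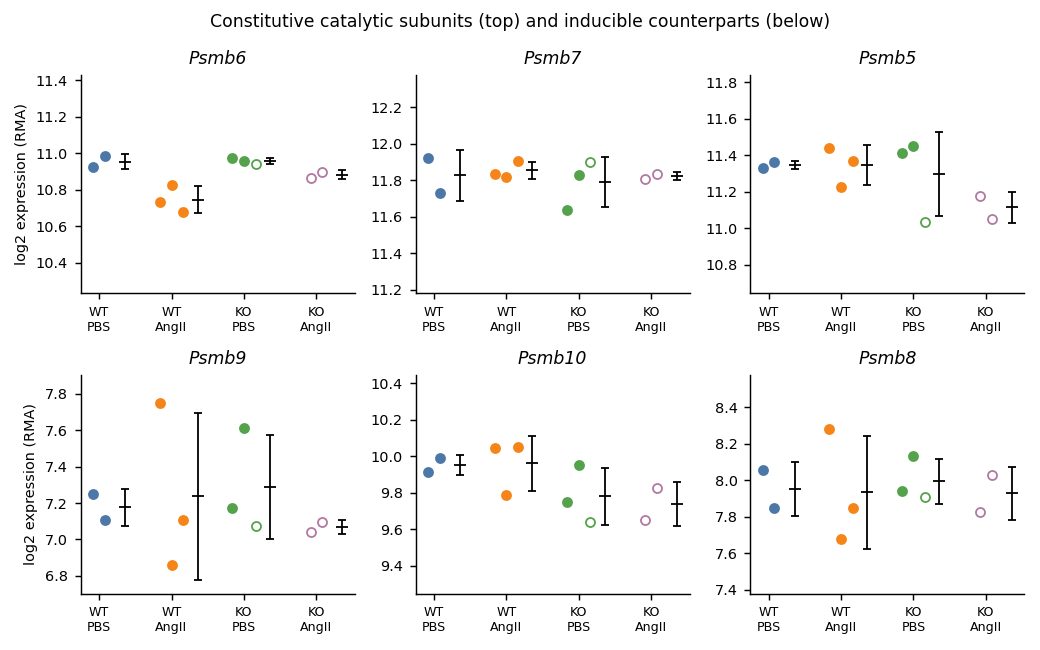
Log2 expression of the 3 constitutive catalytic subunit genes (top) and the inducible gene that replaces each (below), by array, in the 4 groups; points are arrays, open where spike-in signal was low, and the bar beside each group is its mean with SD. Each panel spans 1.2 log2 units. Psmb6 is tight within groups, while Psmb9 runs from 6.86 to 7.75 within WT AngII alone.

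Psmb8 and Psmb9 followed each other across the 10 arrays, with Pearson r = 0.92 and Spearman rho = 0.87 (permutation p = 9.0e-05 and 0.0022, adjusted over 6 relations 2.7e-04 and 0.0067). Without the outermost arrays WT AngII 2 and WT AngII 3, r was 0.80, and within the 7 arrays of high spike-in signal 0.97. Psmb10 was less close to Psmb8 (r = 0.43 and rho = 0.32, permutation p = 0.213 and 0.370, adjusted 0.213 and 0.370). With Psmb9 it gave r = 0.54 and rho = 0.59 (permutation p = 0.108 and 0.0797, adjusted 0.129 and 0.120), and neither passed the test. The mean of the 3 inducible genes was highest on WT AngII 2 (0.35 above its average) and KO PBS 3 (0.23) and lowest on WT AngII 3 (-0.23). As a description, that mean tracked the mean of 11 antigen-processing and interferon genes with r = 0.96 (0.87 without WT AngII 2 and KO PBS 3), and that of 10 macrophage markers with r = 0.65 (0.36 without the same arrays). WT AngII 2 was also the array with the most macrophage and fibroblast marker signal, while KO PBS 3 had macrophage markers below average (-0.23), and the part of either cell type was not tested. Of the 18149 genes outside the rule, those most like that mean over the 10 arrays were Nemp2 (r = 0.99), Fibp (0.98) and Pigc (0.97). The best placed gene of the antigen-processing and interferon list ranked 127, and that of the macrophage list 2109. The mean of the 19S assembly chaperones was also highest on WT AngII 2 (0.41) and KO PBS 3 (0.21). That array pattern was thus not particular to the inducible genes.

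Psmb8 and Psmb9 are also close neighbours. On chromosome 17 of the RefSeq table, both alternate with the peptide transporter genes, in the order Psmb9, Tap1, Psmb8, Tap2, so the correlated pair shares a locus, while Psmb10 is on chromosome 8. Their promoter windows, shown because the pair is correlated, hold neither motif; they lie at chr17:34187281-34187580 on the minus strand (Psmb9) and chr17:34197945-34198244 on the plus strand (Psmb8). The window of Psme1 at chr14:55578244-55578543 on the plus strand, for an activator subunit that interferon also induces, holds the interferon core on its minus strand from 9 bases after the start site, in capitals.
Psmb9: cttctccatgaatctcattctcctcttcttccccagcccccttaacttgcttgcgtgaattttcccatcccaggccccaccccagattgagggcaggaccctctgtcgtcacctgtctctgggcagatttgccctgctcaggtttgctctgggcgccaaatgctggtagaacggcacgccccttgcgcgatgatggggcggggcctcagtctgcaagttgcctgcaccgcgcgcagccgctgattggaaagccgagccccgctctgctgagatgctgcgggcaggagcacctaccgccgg
Psmb8: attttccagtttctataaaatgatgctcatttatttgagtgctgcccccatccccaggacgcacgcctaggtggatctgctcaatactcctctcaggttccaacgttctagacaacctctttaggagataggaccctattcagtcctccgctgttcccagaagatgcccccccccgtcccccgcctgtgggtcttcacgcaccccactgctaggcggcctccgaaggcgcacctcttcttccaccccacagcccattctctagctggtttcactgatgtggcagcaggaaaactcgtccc
Psme1: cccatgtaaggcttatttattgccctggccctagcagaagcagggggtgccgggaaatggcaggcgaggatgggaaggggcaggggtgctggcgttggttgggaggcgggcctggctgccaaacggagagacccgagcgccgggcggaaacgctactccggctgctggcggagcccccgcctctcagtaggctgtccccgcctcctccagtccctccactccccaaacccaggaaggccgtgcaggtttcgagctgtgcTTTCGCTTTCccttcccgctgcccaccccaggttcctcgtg
No match says only that these letters are not in the window. Tap1, between both genes, read 7.04 on both WT PBS arrays and 7.26 to 7.31 with AngII, and 7.11 to 7.21 in KO PBS and 7.17 and 7.37 in KO AngII, so it did not share the high WT AngII 2 value of its neighbours.

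The other beta ring genes, Psmb1 to Psmb4, encode non-catalytic subunits. Psmb3 gave the largest fitted difference of any proteasome gene with AngII in WT. It read 11.10 and 11.18 in WT PBS and 10.48, 10.87 and 10.55 in WT AngII, and the groups did not overlap. The difference was -0.51 (-0.84 to -0.17), a level 1.42-fold lower (limma, unadjusted p = 0.0064, adjusted p = 0.930), and it lay between -0.62 and -0.43 when single arrays were left out. In KO Psmb3 read 11.04, 11.34 and 11.01 with PBS and 10.87 and 11.11 with AngII, a difference of -0.15 (-0.48 to 0.19). The effects differed by 0.36 (-0.11 to 0.84), which did not pass the test, and KO against WT under AngII gave 0.35 (0.02 to 0.69, limma unadjusted p = 0.0401, adjusted p = 0.734). A second probe set of Psmb3 read -0.17 with AngII in WT, 0.10 in KO and 0.38 between genotypes under AngII, so the directions in WT and between genotypes were shared and the size in WT was not.

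Psmb2 separated the arrays by spike-in signal more than by group. It read 10.55 and 10.38 in WT PBS, 10.33, 10.26 and 10.17 in WT AngII, 10.45, 10.61 and 9.74 in KO PBS and 9.86 and 9.76 in KO AngII. Within KO PBS, the array of low signal was 0.79 below the mean of the other arrays, as low as the KO AngII arrays. The fitted difference was -0.22 with AngII in WT, where all arrays are of high signal, and -0.46 in KO (-0.93 to 0.01). KO against WT under AngII gave -0.44 (-0.91 to 0.03), and this changed to 0.35 with a term for spike-in level. Psmb2, Psmb5 and Psme3 were the only members whose 3 low-signal arrays lay below all others, 6.82% of the 44 beside 6.21% of all genes, and no member had them above all others, beside 3.78%. Because the arrays fall into separate clusters by that signal for both Psmb2 and Psmb5, no pooled correlation is given; within the 7 arrays of high signal r was 0.39.

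**Figure D5:**
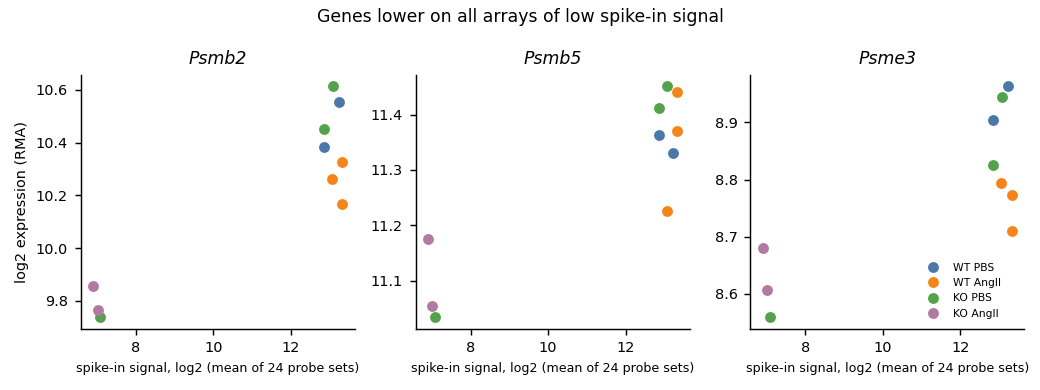
Log2 expression of Psmb2, Psmb5 and Psme3 against the spike-in signal of each array (mean log2 of 24 control probe sets), coloured by group. The 3 arrays of low signal, 2 KO AngII and 1 KO PBS, lie below the other 7 in each panel: 9.74 to 9.86 against 10.17 to 10.61 for Psmb2.

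Psmb1 was the gene with the second smallest p of the beta ring under PBS, where KO was below WT by -0.09 (-0.37 to 0.19) with no overlap of the arrays (11.29 and 11.32 against 11.23, 11.23 and 11.18), and for the difference between AngII effects (0.17, -0.23 to 0.56). Psmb4 had a range of 0.20 over all 10 arrays, the smallest of the 44. Over the 7 constitutive beta genes, 6 were below 0 with AngII in WT (median -0.14) and 5 in KO (median -0.09), with 5 and 5 when quantile normalisation was repeated. Under PBS 5 of 7 were below 0 in KO, but 2 with quantile normalisation repeated.

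The alpha ring genes encode the structural subunits that form the gate. With AngII in WT 7 of 8 were below 0 (median -0.17), also with quantile normalisation repeated, and in KO 4 of 8 (median -0.01). Psma7 had the smallest p in WT. It read 10.93 and 10.85 with PBS and 10.94, 10.59 and 10.32 with AngII, so that WT AngII 2 matched the controls and the other arrays were lower. The difference was -0.27 (-0.63 to 0.09), and -0.44 without WT AngII 2. Psma5 read 10.85 and 10.77 in WT PBS and 10.71, 10.64 and 10.39 in WT AngII, a difference of -0.23 (-0.54 to 0.08) with no overlap. In KO PBS Psma5 read 10.47, 10.55 and 10.62, below both WT PBS arrays, and the genotype difference was -0.27 (-0.58 to 0.04). Psma3 was also lower in all KO PBS arrays than in WT PBS (11.59, 11.67 and 11.58 against 11.79 and 11.78), by -0.18 (-0.40 to 0.05).

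Psma4 had the largest positive AngII difference in KO, 0.16 (-0.15 to 0.47), with 9.93, 10.02 and 9.99 under PBS and 10.08 and 10.20 under AngII. In WT it was -0.12, and the effects differed by 0.29 (-0.16 to 0.73). Psma1 was higher in KO than in WT under AngII by 0.23 (-0.12 to 0.59), with 10.12 and 10.34 against 10.02, 10.06 and 9.90, but -0.12 with a spike-in term. Psma6 had the smallest p of the alpha ring for AngII averaged over genotype (-0.12, -0.32 to 0.07). Psma8, the paralogue known from the testis, read 6.24 to 6.79. Under AngII it was lower in KO (6.24 and 6.47) than in WT (6.75, 6.66 and 6.75), by -0.37 (-0.72 to -0.02, limma unadjusted p = 0.0391, adjusted p = 0.734), and by -0.13 with a spike-in term.

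The 6 ATPases form the ring of the 19S base that unfolds substrates and threads them into the core. All 6 were below 0 with AngII in WT (median -0.18) and in KO (median -0.10), with 6 and 5 when quantile normalisation was repeated. Psmc1 read 10.05 and 10.03 in WT PBS and 9.93, 9.75 and 9.72 in WT AngII, a difference of -0.24 (-0.56 to 0.08). Psmc5 read 10.38 and 10.48 in WT PBS, 10.22, 10.05 and 10.33 in WT AngII, 10.31, 10.36 and 10.09 in KO PBS and 10.10 and 9.99 in KO AngII. Its AngII difference was -0.23 in WT (-0.53 to 0.08) and -0.21 in KO (-0.51 to 0.10), and averaged over genotype -0.22 (-0.43 to -0.00, limma unadjusted p = 0.0484, adjusted p = 0.517), but -0.14 with a spike-in term. Psmc2 had the second smallest p of this part in KO (-0.12, -0.40 to 0.16).

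Under PBS, Psmc4 had the largest genotype difference of the 6 ATPases. It read 10.45 and 10.69 in WT PBS and 10.23, 10.26 and 10.38 in KO PBS, a difference of -0.28 (-0.63 to 0.07), while under AngII the KO arrays (9.98 and 10.47) surrounded the WT arrays (10.24, 10.46 and 10.40) at -0.14 (-0.49 to 0.21). Psmc6 was read by 3 probe sets. The brightest gave -0.16 for KO against WT under PBS (-0.43 to 0.11), and the others gave -0.58 and -0.47 (limma, unadjusted p = 0.0077 and 0.0063, adjusted p 0.668 and 0.641), all in 1 direction and none called.

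The non-ATPase subunits make up the 19S lid and the scaffold of its base. With AngII in WT 10 of 11 were below 0 (median -0.12), but 7 with quantile normalisation repeated, and in KO 5 (median 0.01). Psmd2, the scaffold protein of the base, had the smallest p in both genotypes. It read 11.21 and 11.19 in WT PBS, 11.10, 10.87 and 10.71 in WT AngII, 11.02, 11.27 and 10.88 in KO PBS and 10.84 and 10.67 in KO AngII. The AngII arrays lay below the PBS arrays within each genotype, and the difference was -0.30 in WT (-0.64 to 0.03) and -0.30 in KO (-0.63 to 0.03). Averaged over genotype it was -0.30 (-0.54 to -0.07, limma unadjusted p = 0.0157, adjusted p = 0.487), and -0.21 with a spike-in term.

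Psmd12 of the lid was -0.19 with AngII in WT (-0.45 to 0.07) with no overlap of arrays, and 0.01 in KO. Psmd14, the deubiquitinase of the lid, was -0.21 in WT and -0.13 in KO (-0.48 to 0.22), and Psmd3 had the smallest p of this part for genotype averaged over treatment (-0.13, -0.33 to 0.08). Psmd4, a ubiquitin receptor, read 10.84 and 10.65 in WT PBS and 10.93, 10.47 and 10.30 in WT AngII, against 10.77 and 10.84 in KO AngII. Psmd4 was thus 0.24 higher in KO under AngII (-0.15 to 0.63), and 0.42 higher without WT AngII 2. Within KO PBS, the array of low spike-in signal also read 0.24 above the mean of the other arrays. Psmd7, the lid partner of Psmd14, was 0.20 higher in KO under AngII (-0.21 to 0.62), and -0.22 with a spike-in term. Under PBS all 11 were below 0 in KO (median -0.08), Psmd13 at -0.17 (-0.53 to 0.19) and Psmd2 at -0.14 (-0.47 to 0.19) being those of smallest p, but only 4 of 11 with quantile normalisation repeated.

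The assembly chaperones bind the ATPases while the base is built and leave the finished cap. Psmd10, Psmd5 and Psmd9 were highest or second highest on WT AngII 2, at 7.71, 8.45 and 8.05, against 6.92 and 7.02, 7.89 and 7.82, and 7.65 and 7.76 on the other WT AngII arrays. The AngII difference in WT was -0.01 for Psmd10, 0.06 for Psmd5 (-0.37 to 0.49) and -0.10 for Psmd9 (-0.47 to 0.28), and without WT AngII 2 it was -0.25, -0.14 and -0.21. In KO Psmd9 read 7.86, 8.11 and 7.68 with PBS and 7.53 and 7.60 with AngII, with no overlap, a difference of -0.32 (-0.69 to 0.06) that was -0.12 with a spike-in term. Psmd10 was -0.12 in KO with AngII (-0.63 to 0.39) and -0.25 between genotypes under AngII (-0.77 to 0.26), or -0.01 without WT AngII 2.

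The activators open the alpha gate without ubiquitin. Psme1, a subunit of the interferon-inducible activator, read 11.27 and 11.38 in WT PBS, 11.15, 11.18 and 11.26 in WT AngII, 11.31, 11.35 and 11.36 in KO PBS and 11.28 and 11.22 in KO AngII. AngII arrays lay below PBS arrays in both genotypes, and the difference was -0.13 in WT (-0.36 to 0.10) and -0.09 in KO (-0.32 to 0.14). Psme3, the nuclear activator, read 8.96 and 8.90, then 8.77, 8.79 and 8.71 in WT, and 8.83, 8.94 and 8.56, then 8.68 and 8.61 in KO, for PBS and AngII in turn. Its AngII difference was -0.17 in WT (-0.50 to 0.15) and -0.13 in KO (-0.46 to 0.19), the latter 0.08 with a spike-in term. Psme4, the single-chain activator, read 12.38 and 12.59 in WT PBS and 12.10, 12.31 and 12.35 in KO PBS, and was lower in KO by -0.23 (-0.48 to 0.01). Under AngII it read 12.50, 12.44 and 12.32 in WT and 12.32 and 12.42 in KO (-0.05, -0.29 to 0.19). The probe set that Psme2 shares with another symbol read 10.08 to 10.43 and gave -0.09 with AngII in WT and 0.01 in KO.

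Psmc3ip, which acts in meiotic recombination, and Psme3ip1, a binding partner of Psme3, served as symbols outside the complex. Psmc3ip was 0.15 with AngII in WT (-0.16 to 0.46) and 0.12 in KO (-0.19 to 0.43), and Psme3ip1 -0.09 in WT (-0.42 to 0.24) and -0.08 in KO (-0.41 to 0.25). Of the 44 genes, 23 had further probe sets, 47 in all. With AngII in WT 29 of the 47 had the sign of the probe set used and in KO 28, and between genotypes 24 did so in PBS mice and 26 in AngII mice. None was called, and 2, 3, 7 and 4 of the 47 had an unadjusted limma p under 0.05 in these comparisons. Of these, 1, 2, 4 and 2 were higher. Among all 45037 probe sets, 2356, 2060, 2835 and 2930 had such a p.

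Genes that work with the proteasome but are not covered by its symbols gave 0 calls among 35 of 44 listed. The assembly factors and the inhibitor Psmf1 had 4 of 6 below 0 with AngII in WT (median -0.08) and 5 of 6 in KO (median -0.08). Among 8 ubiquitin shuttles and cap-bound enzymes 7 were below 0 in WT and 5 in KO, with Uchl5, a deubiquitinase of the cap, at -0.34 (-0.71 to 0.03) and -0.36 (-0.73 to 0.01). All 5 measured regulators of subunit transcription and their processing factors were below 0 in WT (median -0.14). Nfe2l1 read 10.85 and 10.95 in WT PBS, 10.57, 10.67 and 10.73 in WT AngII, 10.89, 11.13 and 10.37 in KO PBS and 10.63 and 10.34 in KO AngII, and its AngII difference was -0.24 in WT and -0.31 in KO (-0.73 to 0.11), the latter 0.12 with a spike-in term. Nfe2l2 gave -0.01 in WT (-0.37 to 0.34), or -0.15 without WT AngII 2, and 0.21 in KO (-0.14 to 0.57), or 0.09 with a spike-in term. Vcp, the segregase that extracts ubiquitinated proteins, was -0.17 in WT (-0.44 to 0.11) and -0.32 in KO (-0.60 to -0.05, limma unadjusted p = 0.0263, adjusted p = 0.892), the latter -0.09 with a spike-in term.

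Uba6, a ubiquitin-activating enzyme and the only measured gene of 6 listed for ubiquitin and its activation, was -0.26 with AngII in WT, or -0.42 without WT AngII 2, and -0.51 in KO (limma unadjusted p = 0.0458, adjusted p = 0.892). Between genotypes under AngII it was -0.63 (-1.13 to -0.14, limma unadjusted p = 0.0166, adjusted p = 0.734), and with a spike-in term these were -0.25 and -0.24. Its values on the 3 arrays of low spike-in signal (8.03, 7.69 and 7.88) were below all others (8.16 to 8.98). The muscle ubiquitin ligases Trim63 and Fbxo32, which tag sarcomere proteins, were -0.15 (-0.44 to 0.15) and 0.21 with AngII in WT, or -0.08 and 0.10 without WT AngII 2. In KO they were -0.13 (-0.43 to 0.16) and -0.12 (-0.62 to 0.38), or -0.29 and -0.35 with a spike-in term. Of 11 antigen-processing and interferon genes 7 were above 0 with AngII in WT and 4 in KO. B2m, the light chain of MHC class I, read 11.52 and 11.53 in WT PBS and 12.19, 11.57 and 11.88 in WT AngII (0.36, -0.02 to 0.73), or 0.20 without WT AngII 2. Irf1, an interferon-induced factor, was 0.17 in WT (-0.19 to 0.53) and -0.16 in KO (-0.52 to 0.20), the latter 0.07 with a spike-in term. Tap2 and Erap1 were -0.24 and -0.17 in WT and -0.01 and -0.30 in KO (0.07 and -0.12 with a spike-in term). Ifng was 0.02 in WT and 0.30 in KO (0.09 to 0.52, limma unadjusted p = 0.0103, adjusted p = 0.892). It was 0.29 in KO against WT under AngII (limma unadjusted p = 0.0120, adjusted p = 0.734). With a spike-in term the KO and genotype values were 0.21 and 0.15. Ifng read at most 4.93, below every array's median probe set, and whether it lay above background was not tested.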

How the data were processed

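The deposited table holds log2 expression values of 45101 probe sets on 10 arrays, made by the authors. Per the submitters' processing notes the method was RMA, which normalises the arrays together, so a value depends on all of them. The RMA version (not given in the sources used here) is unknown. The values ran from 3.06 to 14.68. After 64 control probe sets were set aside, 34945 probe sets had 1 gene symbol in the platform annotation, 932 several and 9160 none, and symbols were updated through Entrez identifiers. The fit ran over all 45037 remaining probe sets in R 4.3.3 with limma 3.58.1 (4 group means, eBayes with trend, Benjamini-Hochberg adjustment) in 7 comparisons, with 95% intervals from the moderated fit. No count or depth exists for arrays, and their number limits the precision.

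Genes named were Psmb5 to Psmb10, the activators, in each comparison and part of the complex the 2 members of smallest unadjusted p, and the 3 genes most correlated with the inducible catalytic genes. The members and lists were chosen with earlier results of these data known. In data simulated for AngII in WT, with 200 of 45037 probe sets changed, the fit recovered 83% of those changed 2-fold and 100% of those changed 4-fold, with 14 false calls. No change smaller than 2-fold, no outlying array and no spike-in split was simulated, so the recovery of smaller changes is not known. Alternatives were other scalings, a filter at the median level, other eBayes settings, array weights, a replicate block, a spike-in term, a fit of the compared groups alone, averaging over all probe sets of a gene and each array left out. The title numbers were not treated as pairs in the main fit.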

Additional observations from a re-analysis of the deposited data

How the results depend on the processing

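Over 21 alternative settings no proteasome gene was called except with array weights in KO against WT under AngII, where 5 were. In that comparison genotype and spike-in level cannot be told apart. With quantile normalisation repeated, the median over the 44 genes was -0.057 for AngII in WT and 0.026 for KO against WT under PBS; with array weights the median difference between AngII effects was 0.14. With single arrays left out, the median ran from -0.18 to -0.09 for AngII in WT, from -0.09 to -0.00 in KO, from 0.025 to 0.11 for the difference between them, from -0.12 to -0.023 for KO against WT under PBS, from -0.06 to 0.03 under AngII, from -0.11 to -0.06 for AngII averaged over genotype and from -0.06 to 0.01 for genotype averaged over treatment. Prkcz (-0.53, not called) was -0.58 with array medians made equal, -0.58 with quantile normalisation repeated and -0.55 with array weights, each called (adjusted p 0.0423, 0.0421 and 0.0055), and -0.56 to -0.50 with single arrays left out. The causes were not tested. A fit on only the arrays of high spike-in signal was chosen after seeing the data and gave a median of -0.13 for AngII in WT.

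Same-numbered arrays of different groups had deviations from their group means correlated from -0.36 to 0.10 over 10 pairs. In a group of 2 arrays the deviations are mirror images, so this check cannot decide whether the title numbers pair the arrays. With the number as a replicate block the median was -0.16 for AngII in WT, -0.04 in KO, 0.08 for their difference, -0.12 and -0.01 for KO against WT under PBS and AngII, and -0.10 and -0.05 for the averages, with 0 genes called in each and Prkcz at -0.51.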
